A study of Rattus norvegicus with 10 samples.

Results

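The 7 genes described here act in fatty acid oxidation outside the mitochondrion. They are Ehhadh, Hsd17b4, Acaa1a and Pex11a of the peroxisome and the microsomal cytochromes P450 Cyp4a1, Cyp4a2 and Cyp4a3. They were taken by symbol from a table of 12555 genes, and all 7 were present. Messenger RNA had been sequenced from 10 wild-type rat liver libraries. In 5 of them (normal 1 to 5) the diet label is normal, and in the other 5 (restricted 1 to 5) it is a diet with 30% fewer calories during the whole of gestation, used to model small size at birth. The labels name hepatocytes of a cell line, whereas the design text names liver tissue, and the sources used here give no strain, sex, age, feeding state or collection time.

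Peroxisomes shorten very long, branched and dicarboxylic fatty acids. In each round a bifunctional enzyme carries out the middle steps (Ehhadh for one stereochemical route, Hsd17b4 for the other), and a thiolase such as Acaa1a releases acetyl-CoA. CYP4A enzymes add a hydroxyl group to the terminal (omega) carbon, the opening step on the way to dicarboxylic acids, which peroxisomes then shorten. In rodent liver many of these genes are induced through the nuclear receptor PPARalpha during fasting and by fibrate drugs. Cyp4a2 is known in rat liver as a gene expressed mainly in males.

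Total counts ran from 14936156 to 22104957 per library. Of 8 hepatocyte markers, 7 were listed, of which 1 fell (Ttr, in edgeR adjusted p = 0.0497), and their summed level was 159000 to 189800 CPM (counts scaled to library size with TMM factors) in normal and 140000 to 218000 CPM in restricted libraries. Macrophage markers were higher on the log2 scale in restricted libraries for 10 of 10 genes, with summed levels of 754 to 983 CPM in normal and 840 to 2085 CPM in restricted libraries, and 0 of them passed the test; their part in the results was not tested. Markers of cholangiocytes, stellate, endothelial and erythroid cells gave 0 calls. Of 6 markers of kidney proximal tubule, an organ where Cyp4a2 is also active, only Lrp2 was listed, at 15.4 to 28.8 CPM in normal and 8.42 to 17.3 CPM in restricted libraries. The Y-linked gene Kdm5d was counted in every normal library (18.9 to 25.6 CPM) and in restricted 5 (19.2 CPM), and had a count of 0 in restricted 1 to 4, where 3 counts, the limit that a count of 0 allows, equal 0.134 to 0.207 CPM. Of 5 Y-linked genes sought, only Kdm5d was listed, so the others could not be checked. Kdm5d is carried by males only, so restricted 1 to 4 may be female libraries and the other 6 male, which no label states. A difference of the restricted group can thus hold a difference between the sexes, and in restricted 1 to 4 the 2 cannot be told apart. For this reason results are also given for restricted 5 against the normal libraries and with Kdm5d as a covariate. Among restricted libraries only restricted 5 had Kdm5d counts, so the diet term of the covariate fit rests largely on that library too. The 2 fits are thus not separate checks. For Pex11a, for example, the log2 fold change was 1.93 with the covariate and 1.90 for restricted 5 against the normal libraries. In such bulk libraries, fewer cells of a type and less RNA per cell cannot be told apart.

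Pex11a and Cyp4a1 rose in the restricted group, 3.18-fold and 3.16-fold, and all 5 restricted libraries lay above all 5 normal ones for both genes. Cyp4a3, Ehhadh, Hsd17b4, Acaa1a and Cyp4a2 had positive log2 fold changes that did not pass the test. Of the 7 genes, 2 were called higher and 0 lower by the edgeR quasi-likelihood test at a Benjamini-Hochberg adjusted p of 0.05, where 1.87% of all 12367 genes tested were called higher, 2.22% lower and 4.09% in either direction. With Kdm5d as a covariate neither gene passed, while the log2 fold changes went from 1.67 to 1.93 (Pex11a) and from 1.66 to 2.17 (Cyp4a1). Of the 7, 4 had an unadjusted p below 0.05 in edgeR, against 20.1% of all genes. The median log2 fold change of the 7 genes was 0.96, and that of all genes tested was 0.01. The CPM ranges of the groups did not overlap for 2 of the 7 genes, both higher, and for 2.91% of all genes on the higher side, 3.44% on the lower side and 6.35% on either.

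**Figure D1:**
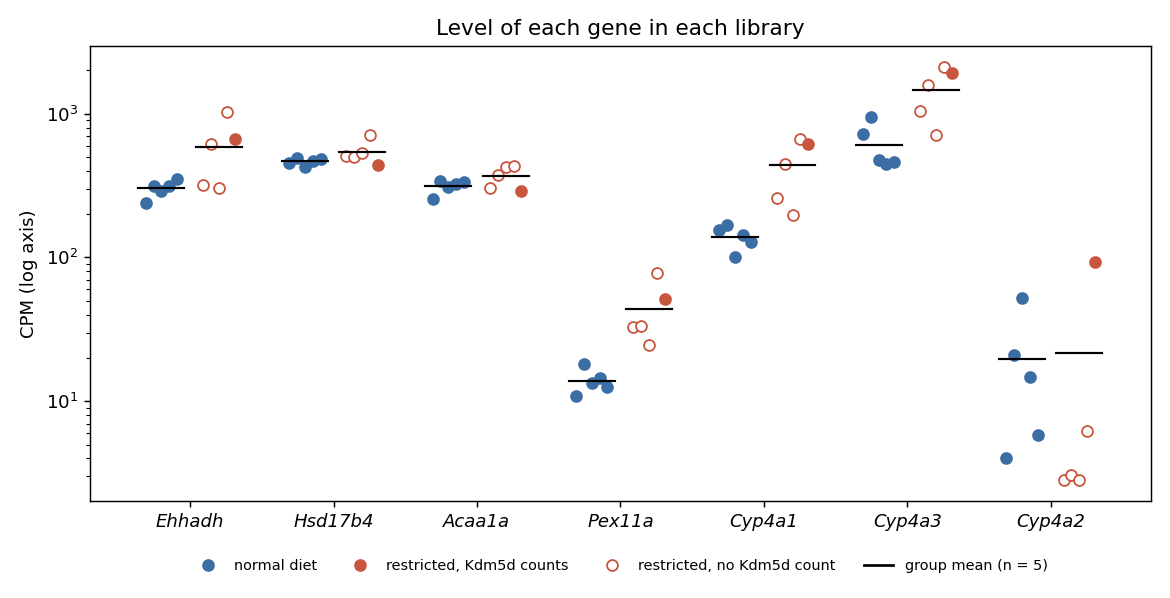
CPM of the 7 genes in each library on a log axis, with normal libraries in blue, restricted libraries in red (open where Kdm5d had no count) and a bar at each group mean of 5 libraries. The groups are apart for Pex11a and Cyp4a1, and the Cyp4a2 values spread from 2.83 to 93.6 CPM.

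Per length, the CYP4A genes spanned the whole range of the 7. In the normal libraries, the authors' FPKM (fragments per kilobase of transcript, scaled to depth) was highest for Cyp4a3, at 94.9 ± 33.7 (SD, n = 5), followed by Cyp4a1 at 65.8 ± 12.7, with ranges that overlapped. Acaa1a, Ehhadh and Hsd17b4 followed at 50.1 ± 4.82, 47.4 ± 5.79 and 42.9 ± 2.15 FPKM (SD, n = 5), and their ranges overlapped one another, as did those of Cyp4a1 and Acaa1a. Pex11a had 6.07 ± 1.16 FPKM and Cyp4a2 had 3.11 ± 3.11 FPKM (SD, n = 5), and their ranges overlapped too. In the restricted libraries Cyp4a3 and Cyp4a1, at 233 ± 92.5 and 211 ± 98.6 FPKM (SD, n = 5), differed from each other by less than their spread. Ehhadh at 93.1 ± 43.7 FPKM then stood above Acaa1a at 59.3 ± 8.66 FPKM and Hsd17b4 at 49.96 ± 6.25 FPKM, with ranges that overlapped from each neighbour to the next. Pex11a reached 19.4 ± 8.45 FPKM, and Cyp4a2, at 3.66 ± 6.87 FPKM, was the lowest on average but overlapped Pex11a through restricted 5.

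Ehhadh (ENSRNOG00000001770) encodes the L-bifunctional enzyme of the classical peroxisomal route, which handles straight-chain and dicarboxylic acyl-CoAs. Its level was 239, 315, 289, 314 and 352 CPM in normal 1 to 5 and 321, 612, 303, 1033 and 663 CPM in restricted 1 to 5. Restricted 2, 4 and 5 lay above every normal library, whereas restricted 1 and 3 lay within the normal range. The log2 fold change was 0.96 ± 0.31 (SE; 95% interval 0.27 to 1.64) and did not pass (adjusted p = 0.117 in edgeR). DESeq2 called it (adjusted p = 0.0142), and no fit that left out a library did (adjusted p = 0.0504 to 0.209). With Kdm5d as a covariate Ehhadh was not called either (log2 fold change 1.14, adjusted p = 0.299 in edgeR). Restricted 5 against the normal libraries gave 1.13.

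Hsd17b4 (ENSRNOG00000015840) encodes the D-bifunctional enzyme, needed for branched-chain acids and bile acid intermediates. Normal 1 to 5 had 453, 491, 428, 471 and 483 CPM, and restricted 1 to 5 had 509, 497, 532, 708 and 442 CPM. Restricted 5 lay within the normal range and the other restricted libraries above it, with restricted 4 highest. The log2 fold change was 0.21 ± 0.12 (SE; 95% interval −0.06 to 0.48; adjusted p = 0.365 in edgeR), so a rise of the size seen for Pex11a lies outside the interval. Its sign turned in the fit of restricted 5 against the normal libraries, to −0.08, and with Kdm5d as a covariate, to −0.09 (adjusted p = 0.862 in edgeR).

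The ratio of Ehhadh to Hsd17b4, compared after the values were seen, set these enzymes of the middle steps against each other. By FPKM it was 0.900, 1.10, 1.15, 1.14 and 1.24 in normal 1 to 5 and 1.08, 2.10, 0.971, 2.49 and 2.56 in restricted 1 to 5. Restricted 2, 4 and 5 lay above every normal library, and restricted 1 and 3 within the normal range. The mean log2 ratio was 0.63 higher in the restricted group, which did not pass a two-sided exact permutation test of 5 against 5 libraries (p = 0.127, adjusted p = 0.127 over 5 ratios). Of 10 fits that each left out a library, 1 gave an unadjusted exact permutation p below 0.05 (0.0397, without restricted 3, 0.83 higher), and the other 9 gave 0.48 to 0.79 with p of 0.0635 to 0.222.

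Acaa1a (ENSRNOG00000032908) encodes a peroxisomal thiolase, the closing step of each round. It had 254, 342, 311, 323 and 334 CPM in normal 1 to 5 and 305, 376, 429, 431 and 290 CPM in restricted 1 to 5. Restricted 2, 3 and 4 lay above every normal library, and restricted 1 and 5 within the normal range. The log2 fold change was 0.23 ± 0.13 (SE; 95% interval −0.06 to 0.52; adjusted p = 0.363 in edgeR), and it turned to −0.11 in restricted 5 against the normal libraries and to −0.12 with Kdm5d as a covariate. Acaa1b, a near-identical thiolase gene whose reads may have been split with Acaa1a by the counting, had 57.4, 77.5, 47.8, 68.9 and 62.7 CPM in normal 1 to 5. In restricted 1 to 5 it had 58.8, 185, 78.2, 194 and 112 CPM, and its log2 fold change was 1.00 ± 0.32 (adjusted p = 0.122 in edgeR). Restricted 2, 4 and 5 were the high libraries, as for Ehhadh, and the log2 ratio of Acaa1b to Acaa1a by FPKM was 0.65 higher in the restricted group (exact permutation p = 0.111, adjusted p = 0.127). Leaving out a library gave an unadjusted exact permutation p below 0.05 in 1 of 10 fits (0.0397, without restricted 3, 0.84 higher), and 0.49 to 0.83 with p of 0.0635 to 0.206 in the other 9.

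Pex11a (ENSRNOG00000015003) encodes a peroxisomal membrane protein that elongates peroxisomes before they divide. Its level was 10.8, 18.2, 13.3, 14.5 and 12.5 CPM in normal 1 to 5 and 32.9, 33.1, 24.7, 78.1 and 51.8 CPM in restricted 1 to 5. Every restricted library was above the highest normal one, and restricted 4 and 5 were the highest. Pex11a rose by 1.67 ± 0.30 on the log2 scale (SE; 95% interval 1.00 to 2.34; adjusted p = 0.0172 in edgeR). The call was lost in edgeR without normal 5 (adjusted p = 0.0509) and with Kdm5d as a covariate (log2 fold change 1.93, adjusted p = 0.0904). It held without restricted 5 (1.60, adjusted p = 0.0342 in edgeR), and restricted 5 against the normal libraries gave 1.90.

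Pex11g, a related membrane protein, had 7.08 ± 0.411 CPM in normal and 7.84 ± 1.12 CPM in restricted libraries (SD, n = 5), a log2 fold change of 0.14 ± 0.13 (SE) that did not pass (in edgeR, adjusted p = 0.572).

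**Figure D2:**
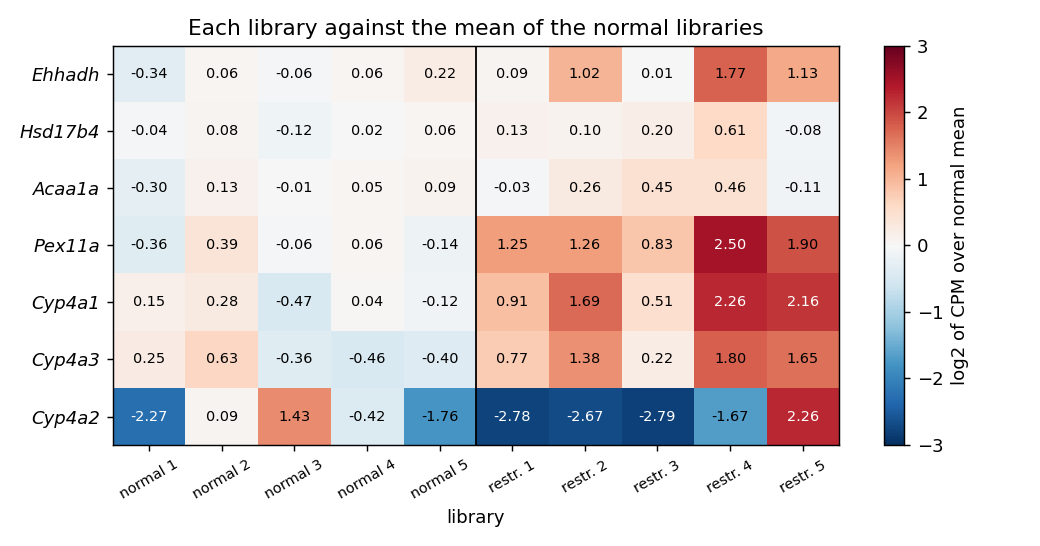
Heat map of the 7 genes (rows) in the 10 libraries (columns), where each cell gives log2 of CPM over the mean of the normal libraries. Pex11a, Cyp4a1, Cyp4a3 and Ehhadh are positive in all 5 restricted libraries, with restricted 4 highest (2.50, 2.26, 1.80 and 1.77). Ehhadh is only 0.0054 in restricted 3, and Cyp4a2 runs from −2.79 to 2.26.

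The CYP4A genes lie close together on chromosome 5 in RefSeq's GRCr8 annotation, in the order Cyp4a2, Cyp4a3, Cyp4a1. Between Cyp4a2 and Cyp4a3 that annotation places the protein-coding gene Cyp4a2l1 and the pseudogenes Cyp4a2-ps1 and Cyp4a2-ps2. Reads of such copies may have been shared or dropped in the authors' counting, so the split among the CYP4A genes is uncertain. RefSeq's promoter table (GRCr8, 250 bases before to 50 after the start) matched 6 of the 7 genes, all but Cyp4a1; its coordinates are not those of rn7, the build of the deposited files. The promoters of Cyp4a2 (chr5:134170859-134171158, minus strand) and Cyp4a3 (chr5:134352187-134352486, minus strand) are printed here because these neighbours differed in pattern across the libraries. Capitals mark AGGTCA, the hexamer bound by PPARalpha and related nuclear receptors, searched on both strands.
Cyp4a2: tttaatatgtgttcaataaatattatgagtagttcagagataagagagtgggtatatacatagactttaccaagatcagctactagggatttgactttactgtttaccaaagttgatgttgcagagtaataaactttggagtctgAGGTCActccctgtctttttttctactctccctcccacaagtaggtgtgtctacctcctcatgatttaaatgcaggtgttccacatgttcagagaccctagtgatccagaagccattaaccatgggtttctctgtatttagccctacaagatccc
Cyp4a3: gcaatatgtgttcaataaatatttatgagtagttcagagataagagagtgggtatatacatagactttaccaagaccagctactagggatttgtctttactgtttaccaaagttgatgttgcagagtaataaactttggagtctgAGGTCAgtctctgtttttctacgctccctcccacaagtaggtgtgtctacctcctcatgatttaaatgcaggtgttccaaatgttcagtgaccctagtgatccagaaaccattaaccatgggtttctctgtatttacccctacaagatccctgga
The pair was identical at 284 of 300 aligned positions (94.7%), with 11 mismatches and 5 gap positions. Each holds 1 AGGTCA, starting 105 bases before the transcription start (−105). Among the 6 promoters, 3 held AGGTCA (the third is that of Hsd17b4), against 16.2% of 33469 rat promoters of this length. The near-identical promoters of Cyp4a2 and Cyp4a3 share the same site, so the 3 are not independent. The response element of PPARalpha with its partner RXR, a direct repeat of AGGTCA with 1 free base between the copies, was in 0 of 6 and in 0.0538% of all promoters. Its relaxed form, the same repeat of AGGNCA, was in 0 of 6 and 0.415%, and TTCNNNGAA, the letters of a STAT5 element, in 0 of 6 and 8.87%. The forms overlap, since the repeat contains the hexamer. Elements farther than 250 bases from a start are outside the windows searched.

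Cyp4a1 (ENSRNOG00000009597) encodes a fatty acid omega-hydroxylase of rat liver that is strongly induced through PPARalpha. It had 154, 168, 100, 143 and 128 CPM in normal 1 to 5 and 260.5, 447, 197, 664 and 617 CPM in restricted 1 to 5. All restricted libraries were above all normal ones, with restricted 4 and 5 highest and restricted 3 lowest. Cyp4a1 rose by 1.66 ± 0.33 on the log2 scale (SE; 95% interval 0.93 to 2.38; adjusted p = 0.0230 in edgeR). The adjusted p missed the threshold without normal 3 (0.0586), normal 4 (0.0584), normal 5 (0.0657) or restricted 2 (0.0563), and with Kdm5d as a covariate (0.0697, log2 fold change 2.17). Without restricted 5 the call held (1.502, adjusted p = 0.0413 in edgeR), and restricted 5 against the normal libraries gave 2.16.

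Cyp4a3 (ENSRNOG00000066878), another liver omega-hydroxylase, was the most abundant of the 7 genes by FPKM in both groups. Its level was 722, 942, 476, 443 and 463 CPM in normal 1 to 5 and 1035, 1583, 710, 2124 and 1905 CPM in restricted 1 to 5. Restricted 3 lay within the normal range and the other 4 restricted libraries lay above it. The log2 fold change was 1.27 ± 0.32 (SE; 95% interval 0.56 to 1.98), and its adjusted p of 0.0543 in edgeR did not pass. DESeq2 (adjusted p = 0.000543) and limma-voom (0.0474) called it, as did the fits without normal 2 (0.0374) or restricted 3 (0.0198). Without each of the other libraries the adjusted p was 0.0513 to 0.134. Cyp4a3 was not called with Kdm5d as a covariate (log2 fold change 1.67, adjusted p = 0.131 in edgeR) or with the replicate number as a block (1.22, adjusted p = 0.104). Restricted 5 against the normal libraries gave 1.65.

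Cyp4a1 and Cyp4a3 made up most of the CYP4A message of the trio, and Cyp4a2 was 0.347% to 6.45% of it in normal and 0.107% to 2.47% in restricted libraries. The summed FPKM of the CYP4A trio was 129 to 226 in normal and 198 to 646 in restricted libraries, with restricted 3 below normal 2. Cyp4a1 was 40.9% ± 5.94 of that sum in normal and 46.5% ± 2.21 in restricted libraries (SD, n = 5), and Cyp4a3 57.0% ± 5.53 and 52.9% ± 2.86. The log2 ratio of Cyp4a1 to Cyp4a3 was 0.30 higher in the restricted group, which did not pass (exact permutation p = 0.103, adjusted p = 0.127 over the 5 ratios). In 1 of 10 fits that left out a library the unadjusted exact permutation p was below 0.05 (0.0318, without normal 4, 0.41 higher), and the other 9 gave 0.20 to 0.36 with p of 0.0873 to 0.214.

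Cyp4a2 (ENSRNOG00000064139) did not follow any of the other 6 genes, which did not all share a pattern themselves. It had 62, 328, 787, 222 and 86 counts in normal 1 to 5 and 64, 57, 41, 94 and 1503 counts in restricted 1 to 5, or 4.06, 20.9, 52.7, 14.7 and 5.80 CPM and 2.85, 3.08, 2.83, 6.17 and 93.6 CPM. Restricted 5, the restricted library with Kdm5d counts, was the highest of all 10, and restricted 1, 2 and 3 were lower than every normal library. The log2 fold change over all libraries was 0.14 ± 1.22 (SE; 95% interval −2.65 to 2.94; adjusted p = 0.965 in edgeR). Without restricted 5 it was −2.40 (adjusted p = 0.160 in edgeR), and restricted 5 against the normal libraries gave 2.26. Its counts in restricted 1 to 4 were 0.194% to 0.399% of those of Cyp4a3, against 0.562% to 11.1% in the normal libraries and 4.91% in restricted 5. The log2 ratio of Cyp4a2 to Cyp4a3 by FPKM differed by −2.17 (exact permutation p = 0.103, adjusted p = 0.127 over the 5 ratios), and by −3.001 without restricted 5 (exact permutation p = 0.0159, unadjusted). The other 9 fits that left out a library gave −2.67 to −1.60 with p of 0.0556 to 0.190.

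**Figure D3:**
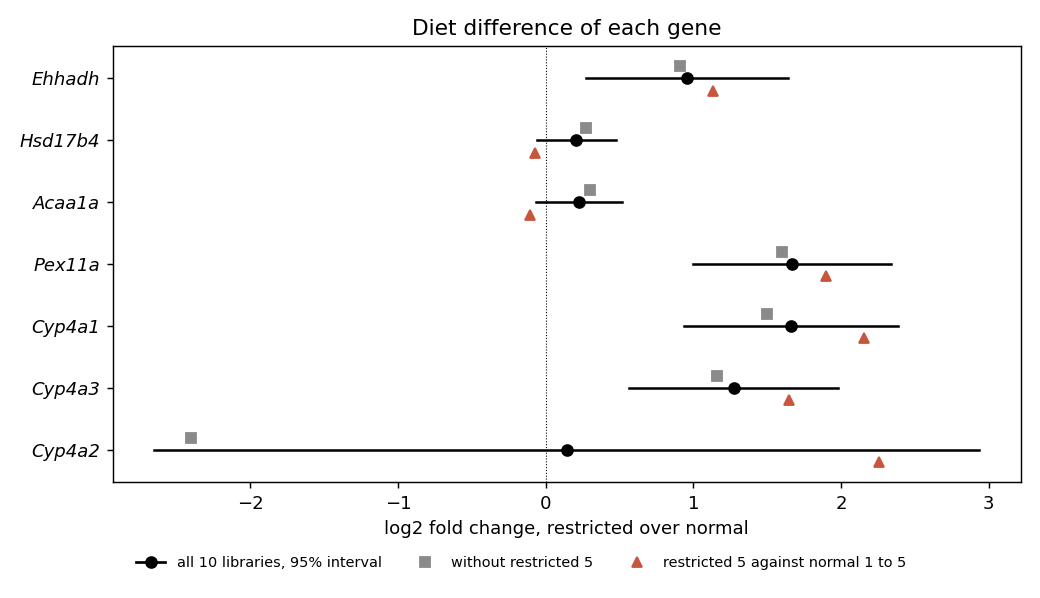
Log2 fold change of each gene, restricted over normal, with its 95% interval over all 10 libraries (black), without restricted 5 (grey squares) and for restricted 5 against normal 1 to 5 (red triangles). Cyp4a2 moves from −2.40 to 2.26 between these subsets, and Hsd17b4 and Acaa1a change sign.

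Other genes known to differ by sex in rat liver were read beside Cyp4a2. Cyp2c11, a male-typical P450, was at 116, 831, 622, 192 and 181 CPM in normal 1 to 5. Restricted 5 reached 151 CPM of it, and restricted 1 to 4 held 2.48 to 6.43 CPM. For Cux2, a female-typical transcription factor, restricted 1 to 4 lay at 13.6 to 24.0 CPM, above the 1.07 to 5.48 CPM of the normal libraries and the 1.74 CPM of restricted 5. Of 4 tested male-biased genes 0 rose and 1 fell, Cyp2c22 (1293 ± 134 to 544 ± 106 CPM, SD, n = 5; in edgeR, adjusted p = 0.00220), and of 4 female-biased genes 0 passed, among them Trim24 (adjusted p = 0.232). Female-biased Cyp2c12 did not separate the groups, at 497.5 to 3049 CPM in normal and 298 to 2714 CPM in restricted libraries (log2 fold change 0.47). A1bg, also female-biased, was at 1.30 ± 1.13 CPM in normal and 1.26 ± 1.06 CPM in restricted libraries (log2 fold change −0.02). Cyp2c22 was not called with Kdm5d as a covariate (adjusted p = 0.0598 in edgeR), where its log2 fold change was −1.25, as over all libraries. Restricted 5 against the normal libraries gave −1.24, with 547 CPM in restricted 5 and 1137 to 1463 CPM in normal libraries. Normal libraries with much Cyp4a2 (normal 2 and 3) were also those with the most Cyp2c11, but restricted 5, with the most Cyp4a2, had less Cyp2c11 than normal 2, 3, 4 or 5.

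**Figure D4:**
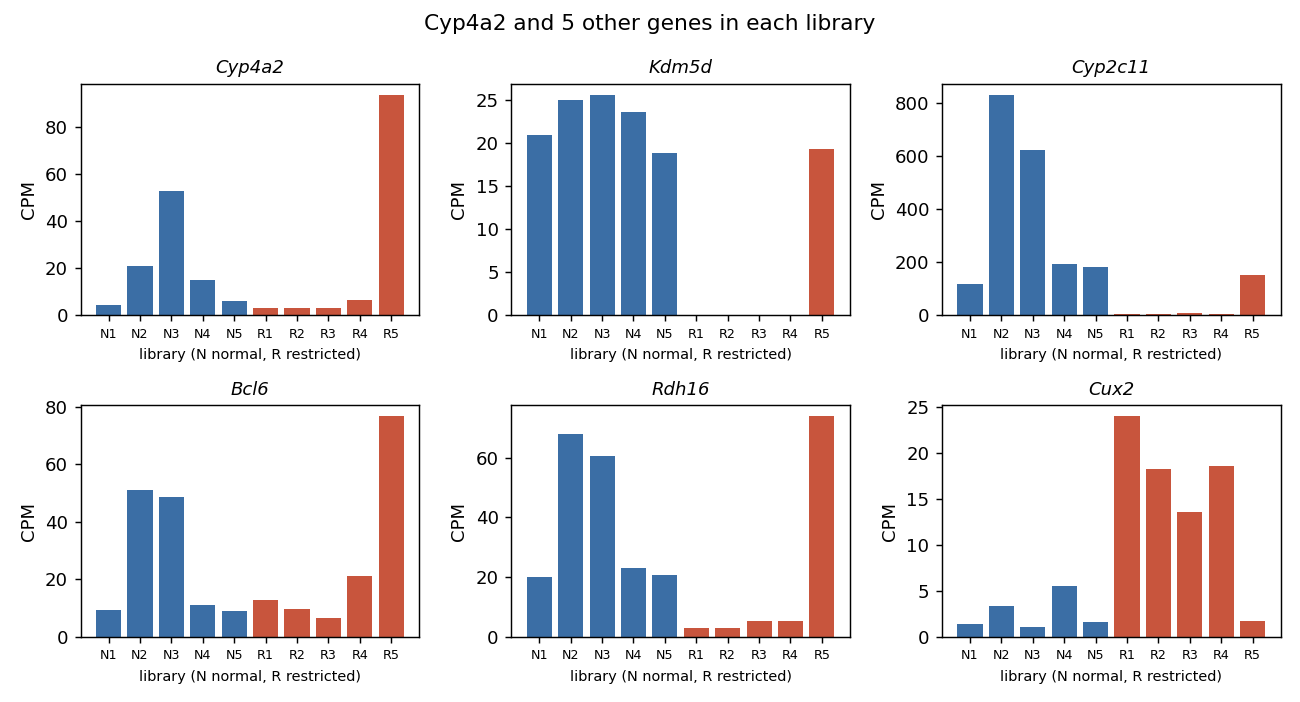
CPM of Cyp4a2, Kdm5d, Cyp2c11, Bcl6, Rdh16 and Cux2 in each library (N, normal; R, restricted), 1 bar per library from 0. Restricted 5 is the highest library for Cyp4a2 (93.6), Bcl6 (76.6) and Rdh16 (73.9), and Kdm5d has no count in restricted 1 to 4. Bcl6 and Rdh16 were picked for patterns nearest to that of Cyp4a2, so a shared peak follows from the choice.

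The genes whose pattern was most like each of the 7 were sought among all tested genes with a symbol and a mean log2 CPM of at least 0. Likeness was the mean absolute difference of log2 CPM over the 10 libraries, each gene centred on its own mean, and serves as a description. Nearest to Cyp4a1 were Ech1, a dienoyl-CoA isomerase of peroxisomes and mitochondria (0.141), and Acot2, a mitochondrial thioesterase (0.228). For Pex11a they were the kinase Pim3 (0.181) and Plin2, a lipid droplet coat protein (0.203), and for Cyp4a3 Hsdl2, a peroxisomal dehydrogenase-like protein (0.214), and Nceh1, a neutral cholesterol ester hydrolase (0.229). Ehhadh was nearest to Gys2, liver glycogen synthase (0.161), and Il16 (0.187). For Hsd17b4 they were Itih3 (0.0537) and Mtdh (0.0548) and for Acaa1a B3gat3 (0.0673) and Guk1 (0.0827), all of which varied little. Cyp4a2 had no close match, and the nearest were Bcl6 (0.755), a transcriptional repressor, and Rdh16 (0.779), a retinol dehydrogenase. Among the 7 genes, Cyp4a1 was the nearest to Ehhadh (0.384), Pex11a (0.262) and Cyp4a3 (0.237), whereas Cyp4a2 was 1.57 from its nearest, Acaa1a.

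The other peroxisomal enzymes of fatty acid oxidation included 4 that rose and 0 that fell of 20 tested, with a median log2 fold change of 0.42. Ech1 rose from 123 ± 22.2 to 406 ± 217 CPM (SD, n = 5; in edgeR, adjusted p = 0.0261). Acot4, a thioesterase that in mouse acts on dicarboxylic acyl-CoAs, rose from 26.7 ± 2.08 to 93.0 ± 44.3 CPM (adjusted p = 0.00980). Crat, carnitine acetyltransferase, rose from 37.5 ± 5.99 to 94.0 ± 35.4 CPM (adjusted p = 0.0197), and Eci2, which moves bonds of unsaturated acyl chains, from 132 ± 5.31 to 181 ± 10.2 CPM (adjusted p = 0.00880). Cat, catalase, which breaks down hydrogen peroxide in peroxisomes, had 2769 ± 473 and 1902 ± 263 CPM (SD, n = 5; in edgeR, adjusted p = 0.0635). Under the Kdm5d covariate 0 of the list were called, and Eci2, Acot4, Crat and Ech1 had log2 fold changes of 0.49, 1.69, 1.41 and 1.84 (adjusted p = 0.0943, 0.112, 0.132 and 0.144 in edgeR). Restricted 5 against the normal libraries gave 0.49 for Eci2, 1.69 for Acot4, 1.39 for Crat and 1.83 for Ech1. The count of 4 was 2 without restricted 2 and 6 without normal 1, restricted 1 or restricted 3.

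Among 8 genes of fatty acid entry and activation, the peroxisomal transporters Abcd2 and Abcd3 rose and 0 fell, with a median log2 fold change of 0.28. Abcd2, which carries very long and polyunsaturated acyl-CoAs, rose from 6.70 ± 2.71 to 20.5 ± 5.16 CPM (SD, n = 5; in edgeR, adjusted p = 0.0134). Abcd3, which carries branched and dicarboxylic acyl-CoAs, rose from 175 ± 3.73 to 259 ± 51.1 CPM (adjusted p = 0.0215). The Kdm5d covariate left neither called, with log2 fold changes of 1.42 for Abcd2 (adjusted p = 0.148, from 1.61) and 0.38 for Abcd3 (adjusted p = 0.353, from 0.57). With the replicate number as a block Abcd3 was not called (adjusted p = 0.0558 in edgeR). Restricted 5 against the normal libraries gave 1.46 for Abcd2 and 0.38 for Abcd3. Only 1 of them was called without normal 3, 4 or 5.

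Of 20 genes of peroxisome formation and division apart from Pex11a, 1 rose and 0 fell, and the median log2 fold change was 0.13. Pxmp4, a peroxisomal membrane protein, rose from 37.9 ± 10.5 to 80.7 ± 30.6 CPM (SD, n = 5; in edgeR, adjusted p = 0.0403). Pex6, an ATPase that recycles the import receptor, had 45.6 ± 2.45 and 56.1 ± 5.52 CPM (adjusted p = 0.0758). Pxmp4 was not called without normal 3, normal 4, normal 5, restricted 1 or restricted 2, where the list had 0 calls, and without restricted 5 the list had 2. It was not called either with Kdm5d as a covariate (log2 fold change 0.71, from 1.09, adjusted p = 0.425 in edgeR) or with the replicate number as a block (1.05, adjusted p = 0.0559). Restricted 5 against the normal libraries gave 0.71 for Pxmp4.

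The other members of the CYP4 family gave 1 call higher and 0 lower of 8 tested, with a median of −0.17. Cyp4b1, a CYP4 enzyme of shorter-chain and foreign substrates, rose from 7.67 ± 1.81 to 15.7 ± 3.70 CPM (SD, n = 5; in edgeR, adjusted p = 0.0120). Cyp4a8, the remaining listed CYP4A gene, had 18, 25, 14, 46 and 13 counts in normal 1 to 5 and 48, 24, 26, 89 and 170 counts in restricted 1 to 5 (adjusted p = 0.204). It was highest in restricted 5, as was Cyp4a2. Cyp4f1, a liver CYP4F hydroxylase, had 809 ± 102 and 529 ± 160 CPM (adjusted p = 0.0858). Cyp4b1 was not called with Kdm5d as a covariate (log2 fold change 0.78, from 1.03, adjusted p = 0.221 in edgeR), where the list had 0 calls. In restricted 5 against the normal libraries its log2 fold change was 0.76. For Cyp4f1, restricted 5 against the normal libraries gave a log2 fold change of −0.87, from −0.61 over all libraries. Counting calls in either direction, the list had 3 without restricted 3.

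Of 9 tested partner enzymes of omega-oxidation, 1 rose and 1 fell, with a median of −0.04. Por, the reductase that passes electrons to microsomal P450s, rose from 139 ± 31.1 to 219 ± 44.9 CPM (SD, n = 5; in edgeR, adjusted p = 0.0485), and Cyb5r3, cytochrome b5 reductase, fell from 188 ± 34.9 to 109 ± 15.6 CPM (adjusted p = 0.00931). With Kdm5d as a covariate neither was called. Por was at 0.31, from 0.66 (adjusted p = 0.607 in edgeR), and Cyb5r3 at −0.99, from −0.79 (adjusted p = 0.0821). In restricted 5 against the normal libraries the log2 fold changes were 0.32 (Por) and −0.97 (Cyb5r3). Only 1 of the list was called without normal 1, 2, 3 or 5 or restricted 1, 2, 3 or 4.

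The mitochondrial beta-oxidation enzymes, the parallel route for shorter chains, had 3 calls higher and 0 lower of 14 tested and a median log2 fold change of 0.11. Eci1, an enoyl-CoA isomerase, rose from 70.1 ± 7.20 to 223 ± 133 CPM (SD, n = 5; in edgeR, adjusted p = 0.0366). Hadha and Hadhb, the subunits of the trifunctional protein, rose by 0.55 ± 0.12 and 0.78 ± 0.16 on the log2 scale (SE; adjusted p = 0.0234 and 0.0186). Under the Kdm5d covariate Eci1, Hadha and Hadhb had log2 fold changes of 1.73, 0.53 and 0.79 and 0 of the list were called (adjusted p = 0.184, 0.197 and 0.153 for these 3), as with the replicate number as a block (adjusted p = 0.0509, 0.0568 and 0.0632). The count was 1 without normal 3 or restricted 2 and 0 without normal 4 or normal 5. Restricted 5 against the normal libraries gave log2 fold changes of 1.73 (Eci1), 0.53 (Hadha) and 0.78 (Hadhb).

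PPARalpha and its partners gave 0 calls higher and 1 lower of 13 tested, with a median of 0.10. Ppara had 27.3, 70.4, 39.4, 28.3 and 28.6 CPM in normal 1 to 5 and 63.8, 69.3, 63.6, 69.8 and 63.3 CPM in restricted 1 to 5. Normal 2 exceeded every restricted library and the other normal libraries lay below them, and the log2 fold change of 0.77 ± 0.25 did not pass (adjusted p = 0.114 in edgeR, and 0.00249 without normal 2). For Ppara the Kdm5d covariate gave 0.74 (adjusted p = 0.4225 in edgeR), and restricted 5 against the normal libraries gave 0.71. Ppard, which encodes the delta form of the receptor, was lower in all restricted libraries and fell from 38.9 ± 13.5 to 13.5 ± 2.68 CPM (SD, n = 5; in edgeR, adjusted p = 0.00794). Ppard, with Kdm5d as a covariate, was at −1.50 on the log2 scale, from −1.53, and was not called (adjusted p = 0.140). Other known PPARalpha targets, a list chosen with earlier results of these data known and sharing members such as Hadha and Acadm with the lists above, gave 10 calls higher and 0 lower of 16 tested, with a median of 0.86. Those with the smallest p were Fgf21, Cpt2, Creb3l3, Acot2, Plin2 and Angptl4, with log2 rises of 0.58 to 2.85, and Plin2, for example, rose from 203 ± 37.5 to 488 ± 171 CPM (SD, n = 5; in edgeR, adjusted p = 0.0117). This count was 6 without normal 3 or normal 5 and 12 without restricted 3. With Kdm5d as a covariate it was 1, Fgf21 (2.26, adjusted p = 0.0482 in edgeR), where Plin2 was at 1.48 (adjusted p = 0.0797). Restricted 5 against the normal libraries gave 2.28 for Fgf21, 0.72 for Cpt2 and Creb3l3, 2.11 for Acot2, 1.45 for Plin2 and 0.47 for Angptl4.

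**Figure D5:**
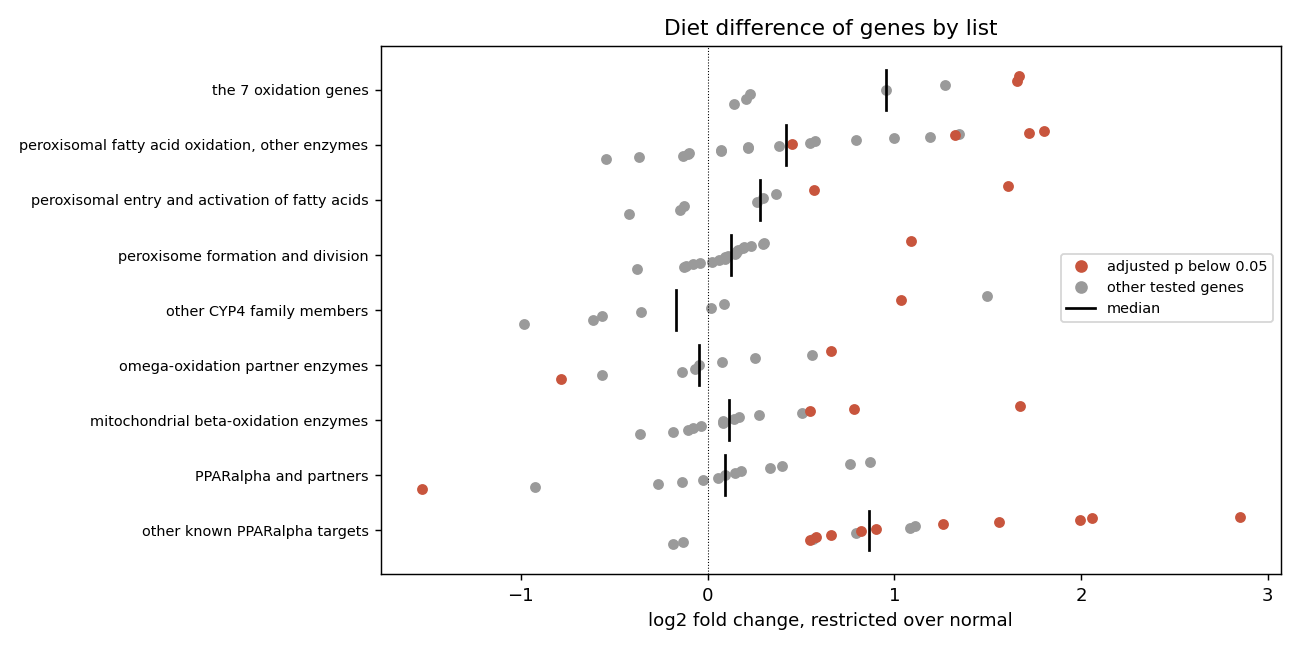
Log2 fold change, restricted over normal, of the 7 genes and of each gene list, with genes past adjusted p 0.05 in red, other tested genes in grey and the median as a black line. The medians are 0.96 for the 7 genes, 0.42 for the other peroxisomal enzymes and 0.11 for the mitochondrial enzymes.

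In the authors' deposited table, 4 of the 7 genes had an adjusted p below 0.05, as did 8.48% of its 12555 genes. These were Pex11a (5.19e-07), Cyp4a1 (1.68e-06), Cyp4a3 (0.000535) and Ehhadh (0.0142) in the authors' deposited table. The authors' rule, which asks for p under 0.05 and a log2 fold change beyond 1 in size, took in 3 of them and 3.82% of all genes in the authors' deposited table. It left out Ehhadh, whose log2 fold change was 0.96 in the authors' deposited table.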

How the data were processed

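RNA came from a TRIpure extraction and an NEBNext Ultra library kit, per the labels' protocols. The series' design text names an Illumina NovaSeq, a Q30 filter and alignment with HISAT2. The submitters' processing notes list bcl2fastq, fastp, HTSeq and build rn7. Versions, annotation and strand setting were not stated there. The deposited counts are whole numbers per gene and library, and the deposited FPKM values are scaled by length and depth, per the file headers. The authors' table holds a fold change (a ratio, restricted to normal), its log2, and the authors' p-value and adjusted p-value for each gene.

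From the counts, edgeR 4.0.16 in R 4.3.3 fitted diet over all 10 libraries (filterByExpr with minimum count 10, which kept 12367 genes and removed 188; TMM; robust quasi-likelihood test, two-sided; Benjamini-Hochberg adjustment over all genes). The script was tested on simulated data. Total counts ran from 14936156 to 22104957, and pairs of libraries in a group differed by at least 21.6 in chi-square per degree of freedom, beyond counting error. The limit for a count of 0 covers counting error only. The labels do not say that libraries came from separate animals or litters, so p-values measure only the spread between these libraries.

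The 7 genes and all lists were chosen with earlier results of these data known. Named are the 7 genes, up to 6 called genes and in any case the 2 with the smallest p of each list, the 2 nearest patterns of each gene, Kdm5d, Ppara and up to 2 genes of each sex list. Acaa1b, Cat, Cyp4a8, Pex11g, Ttr, Lrp2, Cyp2c12 and A1bg were named after their values were seen, and the 5 ratios were chosen then too. Some items that these choices cover are not reported here. The alternatives were scaling by RLE or by the upper quartile, DESeq2 1.42.0, limma-voom (limma 3.58.1) and limma on log2 FPKM with pseudocounts of 0.1 and 1, no filter, a filter of 1 CPM in 5 libraries, a replicate block, leaving out each library in turn, and a covariate of Kdm5d log2 CPM. Restricted 5 was also fitted alone against the normal libraries, the libraries with Kdm5d counts, where the lone library is assumed to vary like the others. That fit cannot measure spread within the restricted group, so for single genes only its log2 fold changes are given. List counts under alternatives were added after the data were seen.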

Additional observations from a re-analysis of the deposited data

Results flagged for a closer look

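Of 94 groups of 5 libraries checked over the named genes, 10 held 1 library far from the other 4. Far meant a gap of over 0.71 of the group's range, which chance alone gives about 1 time in 20. These genes were not drawn at random, so the 10 cannot be set against that rate. Bcl6 and Rdh16 were named for likeness to Cyp4a2, and Kdm5d and Cyp2c11 for library sex, so their restricted 5 values partly follow from that choice. Restricted 5 stood above the other restricted libraries for Cyp4a2 (93.6 CPM), Cyp2c11 (151 CPM), Kdm5d (19.2 CPM), Bcl6 (76.6 CPM) and Rdh16 (73.9 CPM). Restricted 4 stood above the others for Abcd3 (349 CPM) and Creb3l3 (864 CPM). Normal 2 was apart for Ppara (70.4 CPM) and Pxmp4 (56.3 CPM), and normal 1 was low for B3gat3 (40.0 CPM).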

How the results depend on the processing

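Over 47 named genes and 21 alternatives, 764 of 905 comparisons kept their direction and side of the threshold, 83 lost a call, 30 gained one and 28 changed sign. The 506 genes called became 1049 with DESeq2, 121 with Kdm5d as a covariate, 802 for restricted 5 against the normal libraries and 213 to 470 with a library left out. Of the 7 genes, 2 were called, against 4 with DESeq2, 0 with Kdm5d as a covariate and 0 to 3 with a library left out. With the replicate number as a block 265 genes and the same count of the 7 (2) were called; the correlation of same-numbered libraries was over 0.1 in 1 of 5 pairs, so the numbers were not read as pairing, and not every library correlated best with its own number. Under the block Pex11a (adjusted p = 0.0344) and Cyp4a1 (0.0332) kept their calls in edgeR.

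With a library left out, the calls ran from 2 to 6 for the other peroxisomal enzymes, 1 to 2 for entry and activation, 0 to 2 for formation and division, 1 to 3 for other CYP4 genes, 1 to 2 for omega-oxidation partners, 0 to 3 for mitochondrial enzymes, 1 to 2 for PPARalpha and partners and 6 to 12 for its other targets. With Kdm5d as a covariate every one of these lists had 0 calls except the other PPARalpha targets, with 1. With the replicate number as a block, entry and activation had 1, formation and division 0 and mitochondrial enzymes 0. List counts for restricted 5 against the normal libraries are left out, since that fit holds 1 restricted library. The covariate fit rests largely on the same library, so sign changes shared by both fits are not separate results. With Kdm5d as a covariate, and for restricted 5 against the normal libraries, the log2 fold change changed sign for Acaa1a (−0.12 and −0.11), Hsd17b4 (−0.088 and −0.075), Cux2 (−0.63 and −0.56), Trim24 (−0.77 and −0.71), Guk1 (−0.16 and −0.14), Bcl6 (1.79 and 1.57) and Rdh16 (1.18 and 0.94), and with the covariate for Itih3 (−0.0046). Cyp4a2 gave −1.02 with limma-voom, −1.21 with the replicate block, −0.82 and −0.41 on log2 FPKM with pseudocounts of 0.1 and 1, and −2.40 to 0.93 with a library left out, where Bcl6 gave −1.04 to 0.38. The cause was not tested.

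Cyp4a2 had 41 to 94 counts in restricted 1 to 4, and whether reads were shared among CYP4A copies was not tested.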
